A study of Mus musculus with 15 samples.

Results

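The genes described here are the mouse zinc finger genes whose symbols run from Zfp700 to Zfp999. They were chosen by a rule on the symbol, with earlier results of these data known. The rule took the table lines named Zfp with a number in that range, with or without a trailing letter. Each had to hold a count in any of the 15 libraries. The choice gave 132 members of the 18931 genes in the table. The libraries were made from messenger RNA of the brain of Kunming mice, an outbred stock, and fall into 5 groups of 3. JU, JA and UA were treatments given in mice with middle cerebral artery occlusion (MCAO), an operation that models stroke. Vehicle animals had the occlusion and the carrier alone, and sham animals served as the operated control. The sample titles of all 5 groups, sham included, carry the name of the model. The series title names jasminoidin combined with ursodeoxycholic acid, but the labels spell out none of the abbreviations and do not state that JU combines JA and UA. The sources used here give no dose, time, brain region or hemisphere. Nothing in the labels says that the replicates of a group were different mice, so a p-value here speaks only to the spread among these libraries, and that spread may be technical. In bulk brain tissue, fewer cells of a type and less RNA per cell cannot be told apart.

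Most members belong to the C2H2 class of zinc finger proteins, in which pairs of cysteines and histidines hold a zinc ion and neighbouring fingers in tandem read the bases of DNA. Many also carry a KRAB box, a short domain that recruits the co-repressor Trim28, the methyltransferase Setdb1 and heterochromatin proteins. KRAB zinc finger genes are known for silencing retrotransposons, and they lie in clusters that arose by repeated gene duplication.

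The coding sequences show this build. Of 130 members with a coding sequence in the GENCODE M21 annotation of GRCm38, 89 held a match to a KRAB A box pattern and 41 did not, and a divergent box may have been missed. The median number of fingers was 11 in members with the pattern and 8 in those without it. The first canonical finger and the linker after it are printed for Zfp931, Zfp950, Zfp788, Zfp871 and Zfp710, chosen after their values were seen from the 9 members that passed between vehicle and sham, in 84 bases of coding sequence read from GENCODE transcripts. Capitals mark the codons of the 2 cysteines and 2 histidines that hold the zinc.
Zfp931: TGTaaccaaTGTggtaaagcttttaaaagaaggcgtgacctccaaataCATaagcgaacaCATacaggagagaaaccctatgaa
Zfp950: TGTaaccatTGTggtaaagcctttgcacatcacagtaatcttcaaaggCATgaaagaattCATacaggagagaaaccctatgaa
Zfp788: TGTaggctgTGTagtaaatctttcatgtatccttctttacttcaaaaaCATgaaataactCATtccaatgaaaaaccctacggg
Zfp871: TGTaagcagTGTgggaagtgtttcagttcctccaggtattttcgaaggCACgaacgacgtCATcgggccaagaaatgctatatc
Zfp710: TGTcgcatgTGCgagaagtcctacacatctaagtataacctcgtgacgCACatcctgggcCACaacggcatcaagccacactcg
All 5 stretches lie in a single coding exon on GRCm38, at chr2:178068196-178068279 (minus strand) for Zfp931, chr19:61120248-61120331 (minus) for Zfp950, chr7:41648659-41648742 (plus) for Zfp788, chr17:32775534-32775617 (minus) for Zfp871 and chr7:80081971-80082054 (plus) for Zfp710. The stretches of Zfp931 and Zfp950 were the most alike of the 10 pairs, with 63 of 84 bases identical. That of Zfp710 had between 34 and 36 identical bases with each of the other 4. Zfp710 also differed in base composition, with 53.6% G and C against 34.5% in Zfp788 and 47.6% in Zfp871, the lowest and highest of the other 4. Across members with a canonical finger, the median GC content at the third codon position was 34.2% in the 87 with the KRAB pattern and 52.3% in the 32 without it.

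The 132 members lay on 16 chromosomes, with 26 on chromosome 7, 23 on chromosome 17 and 14 each on chromosomes 8 and 13. Relatedness limits what short reads can tell about some of them. 25 members shared at least 50% of their transcript with another gene in stretches of 100 bases or more at 95% identity or more, and 18 of these were tested. Reads from such genes could have been counted for either copy. For 8 members, more than 10% of the exons overlapped a gene on the other strand, and the sources used here do not give the strand setting of the counting.

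The libraries held 18346180 to 20447465 counts, and 16498 to 17052 genes were detected in each. Replicates of every group differed by more than counting noise (chi-square over degrees of freedom 5.02 or more). JU replicate 1 stood apart. The summed level of 12 microglia markers, all 12 of them detected, was 6536, 631 and 1641 CPM (counts scaled to library size and by TMM factors) in the JU libraries in replicate order. It was 1693, 619 and 560.0 CPM in JA, 716, 1285 and 717 in UA, 1969, 4544 and 2726 in vehicle and 502, 527 and 570.0 in sham libraries. The 12 neuron markers summed to 4289 CPM in JU replicate 1, below the 6589 to 11720 CPM of the other 14 libraries. Counts of called genes are therefore given with all 15 libraries and again with JU replicate 1 left out.

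Levels were low for most members. The tested members had a median of 2.29 FPKM (fragments scaled to transcript length and library size, the authors' deposited values, averaged over the 15 libraries) against 6.45 FPKM over all tested genes. Of the 116 tested members, 24 averaged under 1 FPKM and 26 over 5 FPKM, with a range of 0.130 to 43.9 FPKM. The 16 members that did not pass the filter on low counts held 1 to 64 counts in total. Of these, 5 lay on chromosome 2 and 6 on chromosome 4, where 12 members lie in all.

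Zfp706, a small protein with 1 finger that in mouse embryonic stem cells is needed for the exit from pluripotency, was the most abundant member. It averaged 39.7 ± 5.97 FPKM in JU, 43.7 ± 1.78 in JA, 47.4 ± 3.35 in UA, 39.8 ± 1.61 in vehicle and 48.8 ± 2.34 FPKM in sham libraries (SD, n = 3 each). Zfp740, with 3 fingers, followed at 18.03 ± 3.35 FPKM in JU, 16.6 ± 1.32 in JA, 15.04 ± 0.468 in UA, 18.7 ± 0.694 in vehicle and 14.6 ± 0.359 FPKM in sham libraries. Zfp703, a co-repressor of the NET family, averaged 11.3 FPKM and Zfp821 11.02 FPKM over all libraries. Then came Zfp788 at 8.57, Zfp871 at 8.22, Zfp938 at 8.20 and Zfp956 at 7.65 FPKM, of which Zfp788, Zfp871 and Zfp938 carry the KRAB pattern. These 6 lay between 7.65 and 11.3 FPKM, and their order is a description that was not tested.

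Vehicle and sham differ by the occlusion. The sample titles do not say whether sham animals had the carrier, so that may differ too. Of the 116 tested members, 9 passed an adjusted p of 0.05 in edgeR's quasi-likelihood test, in a comparison in which 5.02% of all 15125 tested genes passed. 1 member was higher, where 0.787% of all genes were, and 8 were lower, where 4.24% were. Zfp710 rose, and Zfp931, Zfp759, Zfp788, Zfp763, Zfp950, Zfp952, Zfp871 and Zfp729b fell. The changes of the 8 that fell were moderate, from -0.40 to -0.81 on the log2 scale. The members as a list leaned the same way, with 89 of 116 below 0 and a median log2 fold change of -0.30, against 0.00 over all tested genes. In 46 members every vehicle library was below every sham library, where 24.7% of all genes did so.

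Zfp710, with 11 fingers and no KRAB pattern (chromosome 7, 80024814 to 80094173, plus strand, GRCm38), stood at 29.7, 35.9 and 33.5 CPM in vehicle libraries and 18.7, 20.4 and 17.5 in sham libraries. Every vehicle library lay above every sham library. The log2 fold change was 0.81 ± 0.16 (SE), with an adjusted p of 0.0187.

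Zfp931, a KRAB gene with 7 fingers (chromosome 2, 178067695 to 178078476, minus strand), stood at 10.03, 8.68 and 8.94 CPM in vehicle libraries and 14.5, 15.8 and 18.1 in sham libraries. The groups did not overlap, and the log2 fold change was -0.81 ± 0.13 (SE) with an adjusted p of 0.01. Of its transcript, 84.7% was shared with other genes, the closest being the predicted gene Gm4724, so its level is uncertain. Zfp788, a KRAB gene with 23 fingers (chromosome 7, 41633203 to 41651530, plus strand) that shares no stretch with another gene, stood at 24, 24.3 and 22.4 CPM in vehicle libraries and 33.8, 34.1 and 35.6 in sham libraries. The vehicle libraries were again all below the sham libraries, with a log2 fold change of -0.55 ± 0.12 (SE) and an adjusted p of 0.0239.

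Zfp871, a KRAB gene with 15 fingers (chromosome 17, 32765496 to 32788287, minus strand), had the smallest adjusted p of the members. It stood at 80.02, 71.1 and 74.9 CPM in vehicle libraries and 103, 98.5 and 96.3 in sham libraries, with no overlap. Its log2 fold change was -0.40 ± 0.06 (SE), with an adjusted p of 0.00851. Zfp950, with 17 fingers and no KRAB pattern (chromosome 19, 61053840 to 61140840, minus strand), stood at 13.9, 11.1 and 12.5 CPM in vehicle libraries and 18.1, 18.8 and 16.8 in sham libraries. The log2 fold change of Zfp950 was -0.52 ± 0.12 (SE), with an adjusted p of 0.0305 and no overlap.

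The other 4 that fell were Zfp759 at -0.63, Zfp763 at -0.54, Zfp952 at -0.50 and Zfp729b at -0.40 on the log2 scale. Their adjusted p-values were 0.0268, 0.0307, 0.0343 and 0.038, in that order. All 4 lack the KRAB pattern, with 9 fingers in Zfp952, 13 in Zfp763, 19 in Zfp759 and 30 in Zfp729b. Zfp763 and Zfp952 are neighbours of Zfp871 on chromosome 17, while Zfp759 and Zfp729b lie together on chromosome 13. Zfp729b shares 40.99% of its transcript with other genes, the closest being the overlapping predicted gene Gm49345.

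With JU replicate 1 left out of the shared fit, 40 members passed between vehicle and sham, all 9 of the first calls among them. The share of members that passed, 34.5%, was close to the 33.9% of all genes that passed in that fit. 5 members were higher, where 17% of all genes were, and 35 were lower, where 16.9% were. Of the microglia markers, 4 of 12 passed as higher between vehicle and sham with all libraries, with a median log2 fold change of 2.19 and all 12 above 0. Of the 12 neuron markers 0 passed, all were below 0, and the median was -0.44, and the part of either in the members' values was not tested. Leaving out any 1 of the 6 vehicle and sham libraries instead gave 0 to 4 calls, where 0% to 2.38% of all genes passed. There were 0 calls without sham replicate 3, where 0% of all genes passed, and 1 without vehicle replicate 2, where 0.544% did. There were 2 without sham replicate 2 or vehicle replicate 3, where 0.998% and 2.06% of all genes passed. 3 members were called without sham replicate 1, where 2.38% of all genes passed, and 4 without vehicle replicate 1, where 1.9% did.

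**Figure D1:**
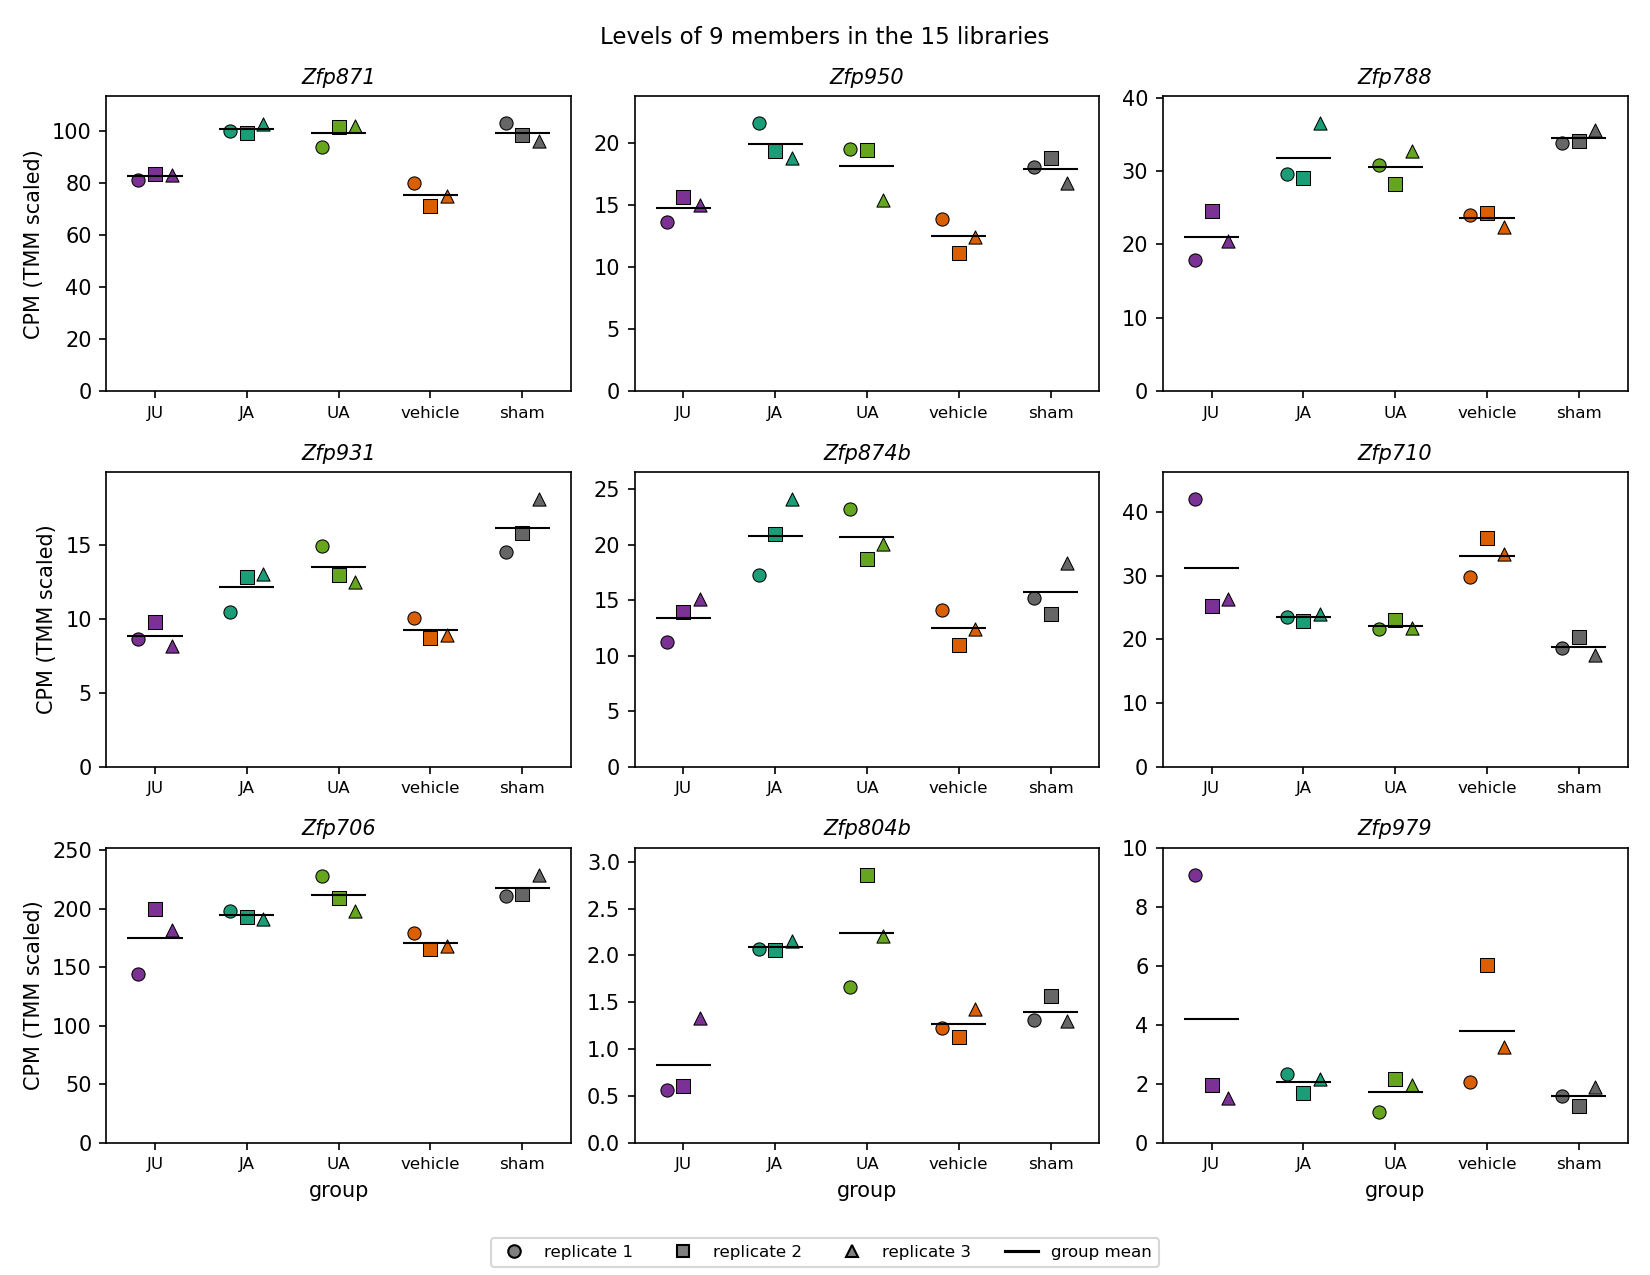
CPM (counts scaled to library size and by TMM factors, vertical axes from 0) of 9 members in the 15 libraries, with groups along the horizontal axis, 1 point per library and a line at the group mean. Zfp871 lies at 71.1 to 83.7 CPM in JU and vehicle libraries and at 94.1 to 103 CPM in JA, UA and sham libraries, while Zfp979 is high in JU replicate 1 and vehicle replicate 2.

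JA and UA were each compared with vehicle. All comparisons with vehicle, that with sham included, use the same 3 vehicle libraries, so their values are set side by side. Between JA and vehicle 5 members passed, all higher, where 1.56% of all genes passed and 1.49% passed as higher. Between UA and vehicle 6 members passed, all higher, where 3.47% of all genes passed and 3.12% as higher. The median log2 fold change of the members was 0.28 for JA and 0.26 for UA, against -0.01 over all tested genes in each. Of the 116 members, 48 had every JA library above every vehicle library, in a comparison where 17.6% of all genes did, and 54 had every UA library above every vehicle library, where 21.7% did.

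Zfp871 rose in both, at 100.3, 99.5 and 103 CPM in JA libraries and 94.1, 102 and 102 in UA libraries, against the vehicle values of 71.1 to 80.02 CPM given above. Its log2 fold change was 0.42 ± 0.06 (SE) for JA with an adjusted p of 0.0203, and 0.40 ± 0.06 (SE) for UA with an adjusted p of 0.0135. Neither treated group overlapped with vehicle, and the values of both lay within or beside the 96.3 to 103 CPM of sham. Zfp950 also rose in both, at 21.6, 19.4 and 18.8 CPM in JA libraries and 19.5, 19.4 and 15.4 in UA libraries, against 11.1 to 13.9 CPM in vehicle. The log2 fold changes of Zfp950 were 0.67 ± 0.12 (SE) for JA and 0.54 ± 0.12 (SE) for UA, with adjusted p-values of 0.0263 and 0.0337.

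Zfp874b, with 10 fingers and no KRAB pattern (chromosome 13, 67471513 to 67484258, minus strand), had the largest called change in both. It stood at 17.3, 20.97 and 24.1 CPM in JA libraries, 23.2, 18.7 and 20.1 in UA libraries, and 14.2, 10.9 and 12.4 in vehicle libraries. The log2 fold change was 0.74 ± 0.17 (SE) for JA and 0.73 ± 0.17 (SE) for UA, with adjusted p-values of 0.0492 and 0.0358. Zfp874b shares 43.7% of its transcript with other genes, the closest being its neighbour Zfp874a. As 19.5% of the exons of Zfp874b also overlap a gene on the other strand, its level is uncertain. Between vehicle and sham Zfp874b was not called, with a log2 fold change of -0.34, an adjusted p of 0.194 and overlapping libraries.

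Zfp729a, a KRAB gene with 27 fingers from the same stretch of chromosome 13, rose in both, by 0.64 on the log2 scale for JA and 0.50 for UA (adjusted p 0.0313 and 0.0454). Zfp868, a KRAB gene of chromosome 8, passed for JA at 0.52 (adjusted p 0.0478), and stood at 0.36 for UA (adjusted p 0.105). Zfp719 and Zfp931 passed for UA, at 0.56 and 0.55 (adjusted p 0.036 and 0.0436), and for JA they stood at 0.46 and 0.39 (adjusted p 0.0923 and 0.154). Zfp983 had the next smallest p for JA, at 0.62 with an adjusted p of 0.0747. A pass in 1 of the treatments does not show that JA and UA differed, and that difference was not tested.

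Zfp710 ran the other way without passing. It stood at 23.5, 22.9 and 23.9 CPM in JA libraries and 21.6, 23 and 21.8 in UA libraries, all below the 29.7 to 35.9 CPM of vehicle, with log2 fold changes of -0.50 for JA and -0.58 for UA (adjusted p 0.143 and 0.0701). In JU Zfp710 stood at 42.01, 25.2 and 26.4 CPM, with replicate 1 above every vehicle library and the other 2 below. With JU replicate 1 left out of the fit, both comparisons of Zfp710 with vehicle passed (adjusted p 0.00569 for JA and 0.002 for UA). In that fit 27 members passed between JA and vehicle, where 19% of all genes did, and 25 of them were higher, where 11.3% of all genes were. Between UA and vehicle 36 passed, where 28.2% of all genes did, and 31 of them were higher, where 14.8% were. Leaving out any 1 of the libraries compared gave 0 calls for JA in all 6 fits, where 0% to 0.15% of all genes passed. For UA it gave 0 to 2 calls, where 0% to 1.43% of all genes passed. There were 0 without vehicle replicate 2, where 0% of all genes passed. There was 1 without vehicle replicate 1, UA replicate 1 or UA replicate 2, where 0.241%, 0.124% and 0.496% of all genes passed. There were 2 without vehicle replicate 3 or UA replicate 3, where 1.43% and 0.58% did.

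The JU libraries were then set against vehicle. Between JU and vehicle 0 members passed in edgeR, and 0% of all genes passed. 2 members, and 300 of the 15125 tested genes, had an unadjusted p under 0.05. DESeq2 and limma voom also called 0 members, where they called 0.0133% and 0% of all genes. Without JU replicate 1, edgeR called 0 members and 0.00656% of all genes. The median log2 fold change was -0.03 over the members and 0.03 over all tested genes. Zfp791, a KRAB gene with 15 fingers, had the smallest p. It stood at 4.47, 4.32 and 5.13 CPM in JU libraries and 5.68, 7.01 and 6.02 in vehicle libraries, a log2 fold change of -0.43 ± 0.18 (SE) with an adjusted p of 1. The next by p were Zfp871 at 0.14, Zfp955b at -0.66, Zfp950 at 0.24, Zfp747 at -0.35 and Zfp729a at 0.23, none of which passed. Of the transcript of Zfp955b, 99.8% is shared with other genes, the closest being Zfp955a. Zfp955b stood at 60.7 CPM in vehicle replicate 1 alone, against 20.9 and 24.7 CPM in the other vehicle libraries.

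JU was also compared with JA and with UA, and these comparisons share the JU libraries. Against JA, JU had a median log2 fold change of -0.32 over the members, with 97 of 116 below 0. Over all 15125 tested genes the median was 0.02, with 7216 below 0. In 45 members every JU library was below every JA library, where 10.6% of all genes did so. In edgeR 0 members and 0% of all genes passed, with and without JU replicate 1. With all libraries, 45 members, and 3074 of the 15125 tested genes, had an unadjusted p under 0.05. DESeq2 called 18 members, where it called 4.48% of all genes, and limma voom called 0. Zfp788, the member with the smallest p, stood at 17.9, 24.6 and 20.5 CPM in JU libraries and 29.6, 29.04 and 36.5 in JA libraries, with a log2 fold change of -0.60 ± 0.12 (SE) and an adjusted p of 0.0825. Zfp938, a KRAB gene with 10 fingers, stood at 9.87, 16.6 and 14.8 CPM in JU libraries and 23, 20.2 and 26.7 in JA libraries, with a log2 fold change of -0.76 ± 0.16 (SE) and an adjusted p of 0.0913. Neither gene overlapped between the groups. Zfp871, Zfp719, Zfp763 and Zfp804b came next, with adjusted p-values of 0.0913 to 0.121.

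Against UA, 2 members fell in JU, where 1.08% of all genes passed and 0.985% passed as lower. In 48 members every JU library was below every UA library, where 13.9% of all genes did so. Zfp719, a KRAB gene with 13 fingers (chromosome 7, 43579610 to 43593235, plus strand), stood at 14.8, 17.9 and 18.6 CPM in JU libraries and 26.4, 27.1 and 26.7 in UA libraries, with a log2 fold change of -0.64 ± 0.13 (SE) and an adjusted p of 0.0449. Zfp869, a KRAB gene with 12 fingers (chromosome 8, 69706332 to 69710724, minus strand), stood at 19.5, 22.7 and 18.8 CPM in JU libraries and 28.3, 28.2 and 28.8 in UA libraries, with a log2 fold change of -0.48 ± 0.10 (SE) and an adjusted p of 0.0485. For both genes the JU libraries lay below every UA library. Zfp788 at -0.54, Zfp931 at -0.60, Zfp799 at -0.68 and Zfp804b at -1.42 came next, with adjusted p-values of 0.0513 to 0.0573. Both calls were lost without JU replicate 1 (adjusted p 0.0608 for Zfp719 and 0.0642 for Zfp869), in a fit where 0.623% of all genes passed. When any UA library or JU replicate 3 was left out, 0 members and 0% of all genes passed. Without JU replicate 2, 31 members passed, where 20% of all genes did.

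Read library by library, the members set JU and vehicle apart from the other groups. The median difference of the 116 members from the sham mean, in log2 CPM, was -0.33, -0.26 and -0.31 in the JU libraries and -0.23, -0.26 and -0.30 in the vehicle libraries. It was 0.01, -0.04 and 0.06 in JA, 0.00, -0.02 and -0.04 in UA and -0.02, 0.03 and 0.03 in sham libraries. Every JU and vehicle library was below every JA, UA and sham library. The other 249 tested Zfp genes were split in the same way, though less widely. Their medians ran from -0.17 to -0.04 in JU and vehicle libraries and from -0.02 to 0.07 in JA, UA and sham libraries. The microglia sum did not follow this split in 2 libraries. JU replicate 2, with a member median of -0.26, had a microglia sum of 631.4 CPM, below the 715.6 to 1285 CPM of the UA libraries. JA replicate 1, with a member median of 0.01, had a sum of 1693 CPM, close to the 1969 CPM of vehicle replicate 1. The part of cell composition in the members' levels was not tested.

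**Figure D2:**
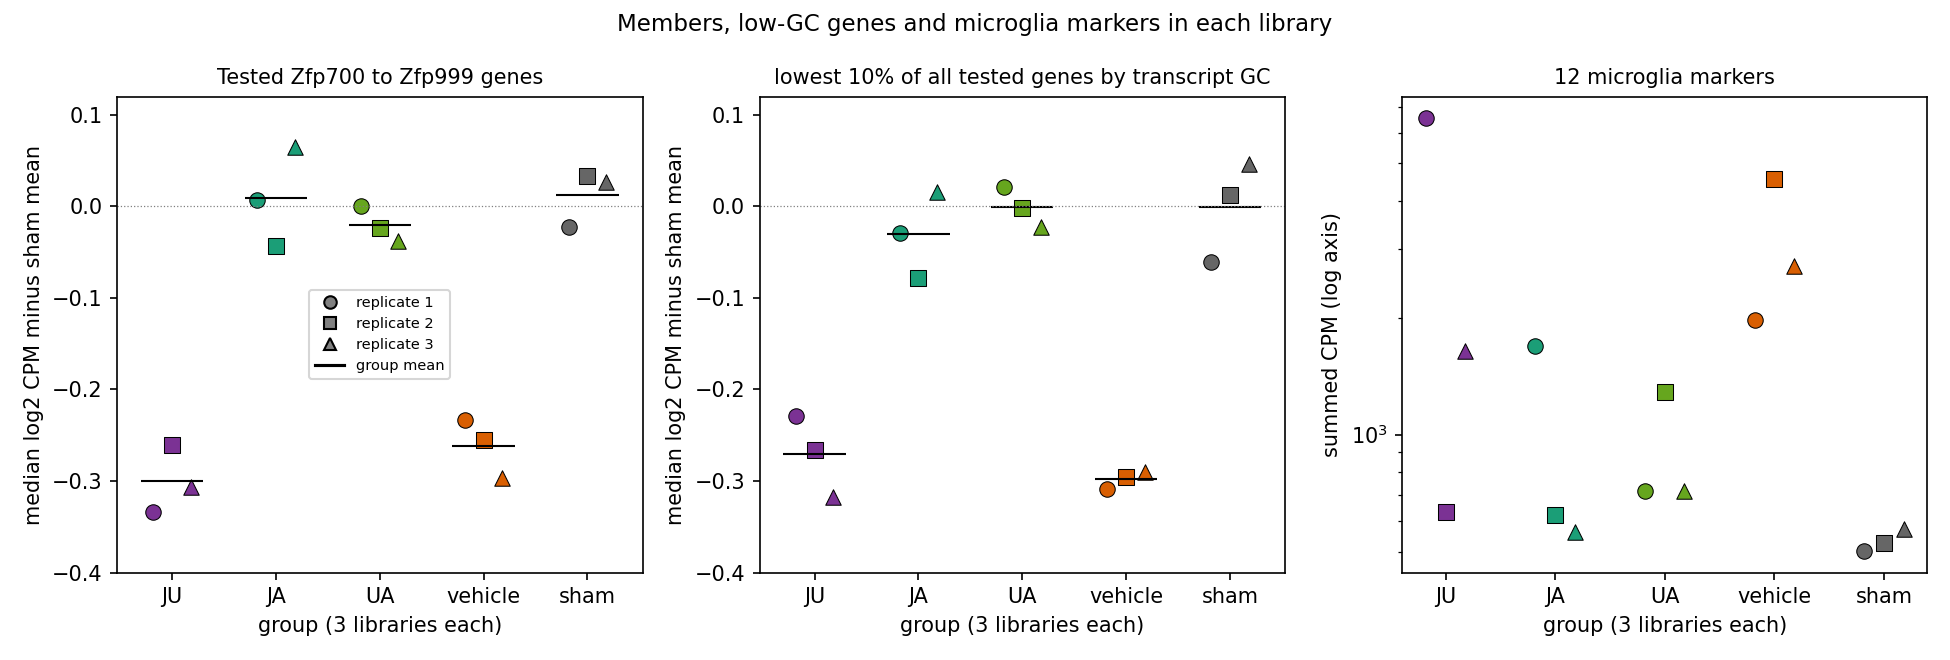
For each of the 15 libraries, grouped along the horizontal axis, the median log2 CPM difference from the sham mean of the 116 tested members (left), the same for the lowest 10% of all tested genes by transcript GC content (middle), and the summed CPM of 12 microglia markers on a log axis (right), with 1 point per library and a line at the group mean in the first 2 panels. JU and vehicle libraries lie at -0.33 to -0.23 in the left panel and JA, UA and sham libraries at -0.04 to 0.06.

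The shift of the median between vehicle and sham, and for JA and UA against vehicle, was wider among members with the KRAB pattern. In the JU libraries the median differences from the sham mean, in log2 CPM, were -0.29, -0.33 and -0.36 with the pattern. Without it they were -0.41, -0.12 and -0.07, so JU replicate 1 ran the other way. Of the 76 tested members with the KRAB pattern, 66 had a negative log2 fold change between vehicle and sham, with a median of -0.37, and 3 passed, where 5.02% of all genes did. Of the other 40, 23 were negative, with a median of -0.05, and 6 passed. These 40 are counted here as without the pattern and include the pseudogene Zfp939, which has no coding sequence to search. They may also include members with a divergent box that the pattern missed. For JA against vehicle the medians were 0.35 with the pattern and 0.06 without it, and for UA 0.31 and 0.03. For JU against vehicle they were -0.02 and -0.05. Calls for UA against vehicle numbered 4 with the pattern and 2 without it, where 3.47% of all genes passed. Without JU replicate 1, 35.5% of members with the pattern and 32.5% of those without it passed between vehicle and sham, where 33.9% of all genes did. The difference between these classes was not tested.

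These classes also differed in base composition. The transcripts of tested members had a median GC content of 40.8%, with 39.9% in those with the KRAB pattern and 48.4% in those without it, against 50.3% over all tested genes. Genes of low GC content in the whole table were split in the same way between these sets of groups, though not in the same order within them. In the lowest 10% of all tested genes by transcript GC (41.9% GC or less), the median difference from the sham mean was -0.23, -0.27 and -0.32 in JU, -0.03, -0.08 and 0.02 in JA, 0.02, 0.00 and -0.02 in UA, -0.31, -0.30 and -0.29 in vehicle and -0.06, 0.01 and 0.05 in sham libraries. Again every JU and vehicle library was below every JA, UA and sham library.

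In the 3 bins under 48% GC, the members' medians lay below those of all genes, untested. Between vehicle and sham, the 25 members under 38% GC had a median log2 fold change of -0.42, against -0.36 for all 237 genes of that bin. The 41 members from 38% to 42% had a median of -0.40, against -0.30 for all 1321 genes. The widest gap was from 42% to 48%, where 23 of 24 members were negative and the median was -0.35, against -0.15 for all 4091 genes. In the 2 bins above 48% the members' medians were 0.06 and 0.19, against 0.05 and 0.14 for all genes. Across the 116 members, the log2 fold change between vehicle and sham correlated with transcript GC content (Pearson r = 0.54, Spearman rho = 0.53). This is a description across genes, which are not independent and share the same 6 libraries.

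**Figure D3:**
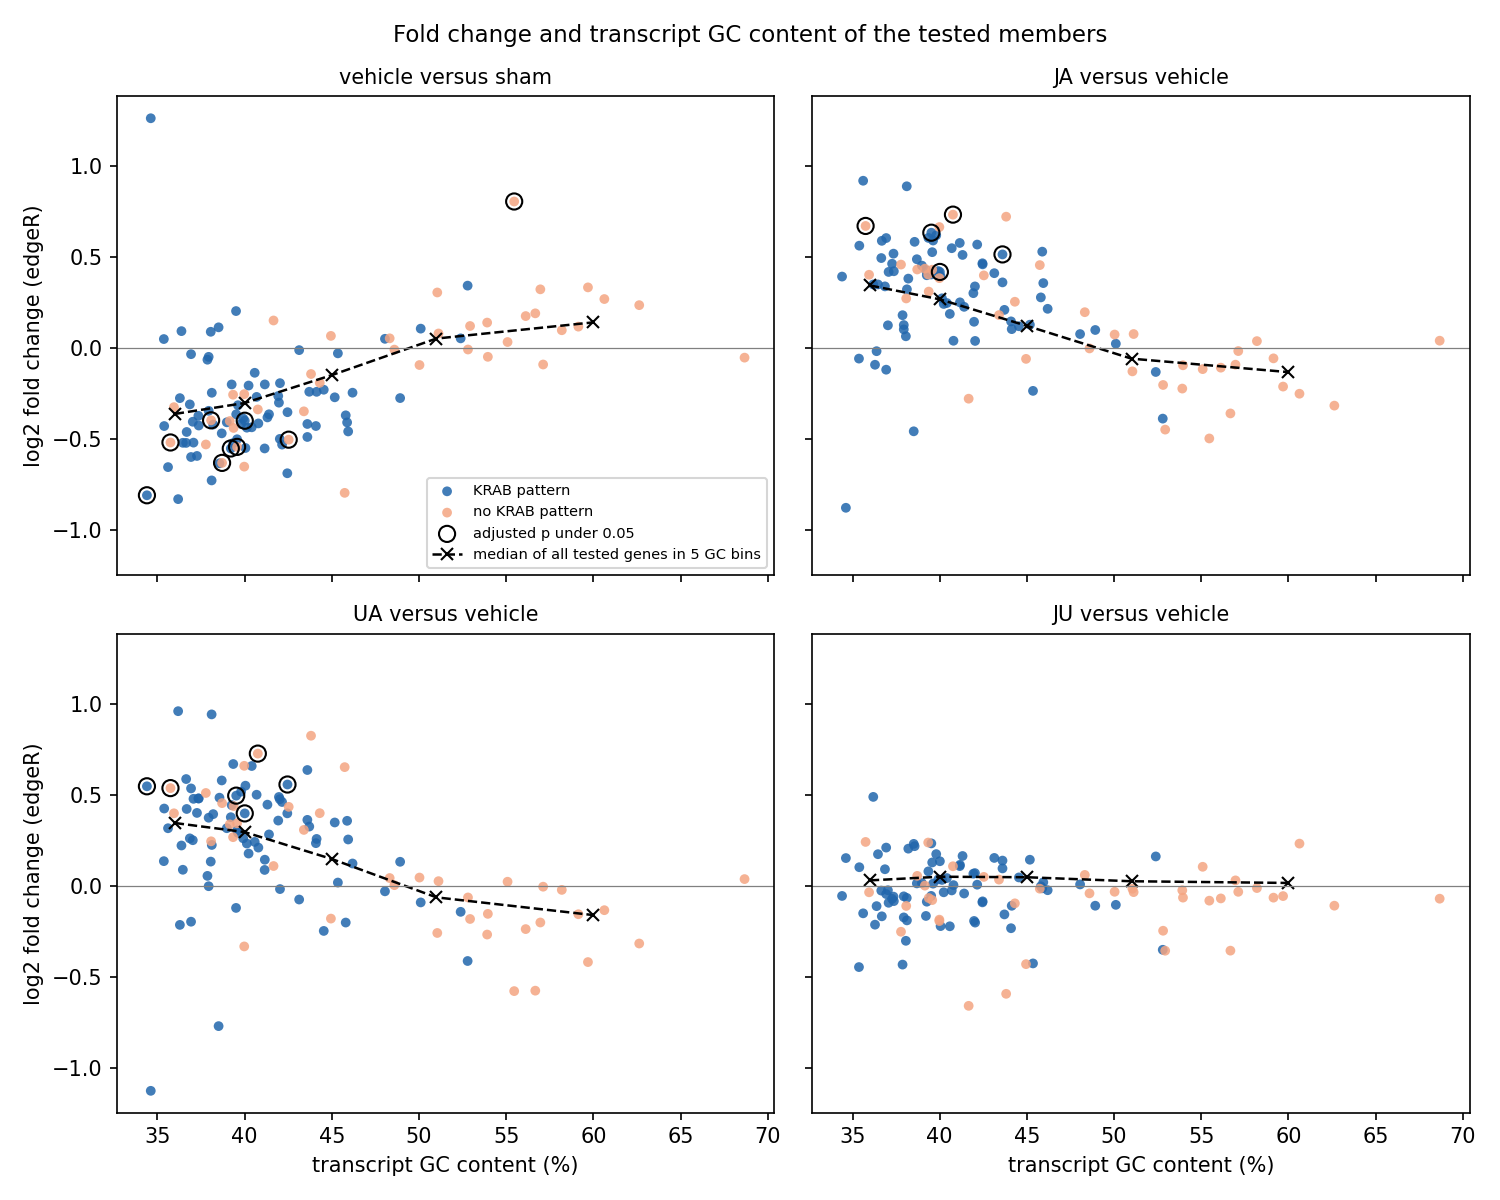
Log2 fold change from edgeR (vertical axis) against transcript GC content in percent (horizontal axis) for the 116 tested members in 4 comparisons, coloured by the KRAB pattern, with circles around members at an adjusted p under 0.05 and crosses at the median of all tested genes in 5 bins of GC content, drawn near the middle of each bin. Between vehicle and sham the crosses run from -0.36 to 0.14, and for JU against vehicle they lie between 0.02 and 0.05.

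After a correction of each library for transcript GC content, 0 members and 0% of all genes passed in each of the 6 comparisons. Between vehicle and sham 6 members, and 2897 of all genes, had an unadjusted p under 0.05 in edgeR, and DESeq2 was not run with the correction. The median log2 fold change of the members was then -0.06 between vehicle and sham, 0.08 for JA, 0.03 for UA and -0.05 for JU against vehicle. For JU it was -0.12 against JA and -0.08 against UA, where the median over all genes was 0.01 in each. Of the 116 members, 87 were below 0 for JU against JA and 72 for JU against UA. In the bin from 42% to 48% GC the members' median was -0.14 between vehicle and sham after the correction, against 0.00 for all genes of the bin. Zfp871 was -0.09 and Zfp950 -0.10 between vehicle and sham in that fit, while Zfp710 was 0.66 (adjusted p 0.213). With the correction and without JU replicate 1, 4 members passed between vehicle and sham, where 24.5% of all genes passed. Zfp710 (adjusted p 0.00503), Zfp740 and Zfp979 were higher, where 14.6% of all genes were, and Zfp804a was lower, where 9.95% were. These names were read after the values were seen. In the same fit 4 members passed for UA against vehicle, all lower, where 11.3% of all genes passed and 6.82% as lower, and 0 passed for JA, where 0.00662% did. The 4 were Zfp710, Zfp740, Zfp955a and Zfp979. The correction removes any difference that goes with GC content, whatever its source, and the part of GC content in the members' differences was not tested.

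**Figure D4:**
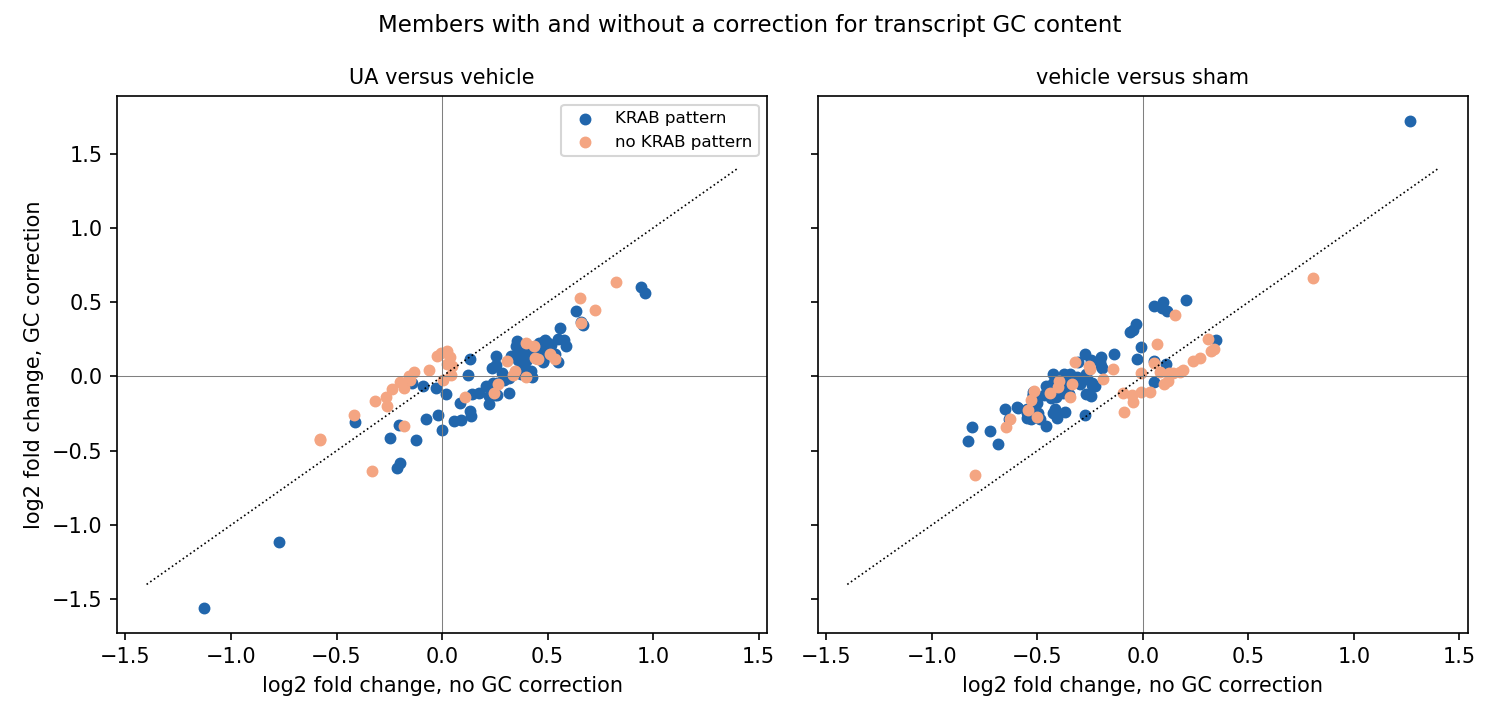
Log2 fold change of the 116 tested members with a correction for transcript GC content (vertical axis) against the value without it (horizontal axis), for UA against vehicle and vehicle against sham, coloured by the KRAB pattern, with a dotted line of equality. With the correction the median over the members is 0.03 for UA against vehicle and -0.06 for vehicle against sham, and Zfp710 is at 0.66 between vehicle and sham.

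The members were also read by their place on the chromosomes. 16 clusters, runs of at least 3 members with neighbouring starts at most 500 kb apart, held 85 members. The largest by tested members, on chromosome 17 from 21567008 to 22867134 with 13 members, had a median log2 fold change of -0.41 between vehicle and sham, 0.42 for JA and 0.42 for UA against vehicle, and 0.01 for JU against vehicle, and 0 of its members passed in any of these. Without JU replicate 1, 6 passed between vehicle and sham, 6 for JA and 5 for UA against vehicle, where 33.9%, 19% and 28.2% of all genes did. The cluster of chromosome 13 from 67038596 to 67687071 had 10 members, all negative between vehicle and sham with a median of -0.40, of which 2 passed, where 5.02% of all genes did. Without JU replicate 1, 6 of the 10 passed, all lower, where 33.9% of all genes passed and 16.9% as lower. Its medians were 0.45 for JA, 0.37 for UA and 0.01 for JU against vehicle. The second cluster of chromosome 17, from 32765496 to 33307241 with 8 members, includes Zfp871, Zfp763 and Zfp952. Of its members 3 passed between vehicle and sham, where 5.02% of all genes did, or 4 without JU replicate 1, where 33.9% did.

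In the clusters of the highest GC content the medians had the opposite signs. That of chromosome 6 from 47819266 to 48086593 holds Zfp746, Zfp777, Zfp786 and Zfp956, has no KRAB pattern match and a median GC content of 55.04%. Its median log2 fold change was 0.12 between vehicle and sham, -0.10 for JA and -0.17 for UA against vehicle. The cluster of chromosome 7 from 127244274 to 127406822, at 56.2% GC, had medians of 0.20, -0.17 and -0.28 in the same comparisons. In the cluster of chromosome 4 from 147132038 to 147848366, a set of KRAB genes of a kind whose loss in mice derepresses retrotransposons, only 4 of 8 members had enough counts to be tested. Members of a cluster share sequence and base composition and are not independent.

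**Figure D5:**
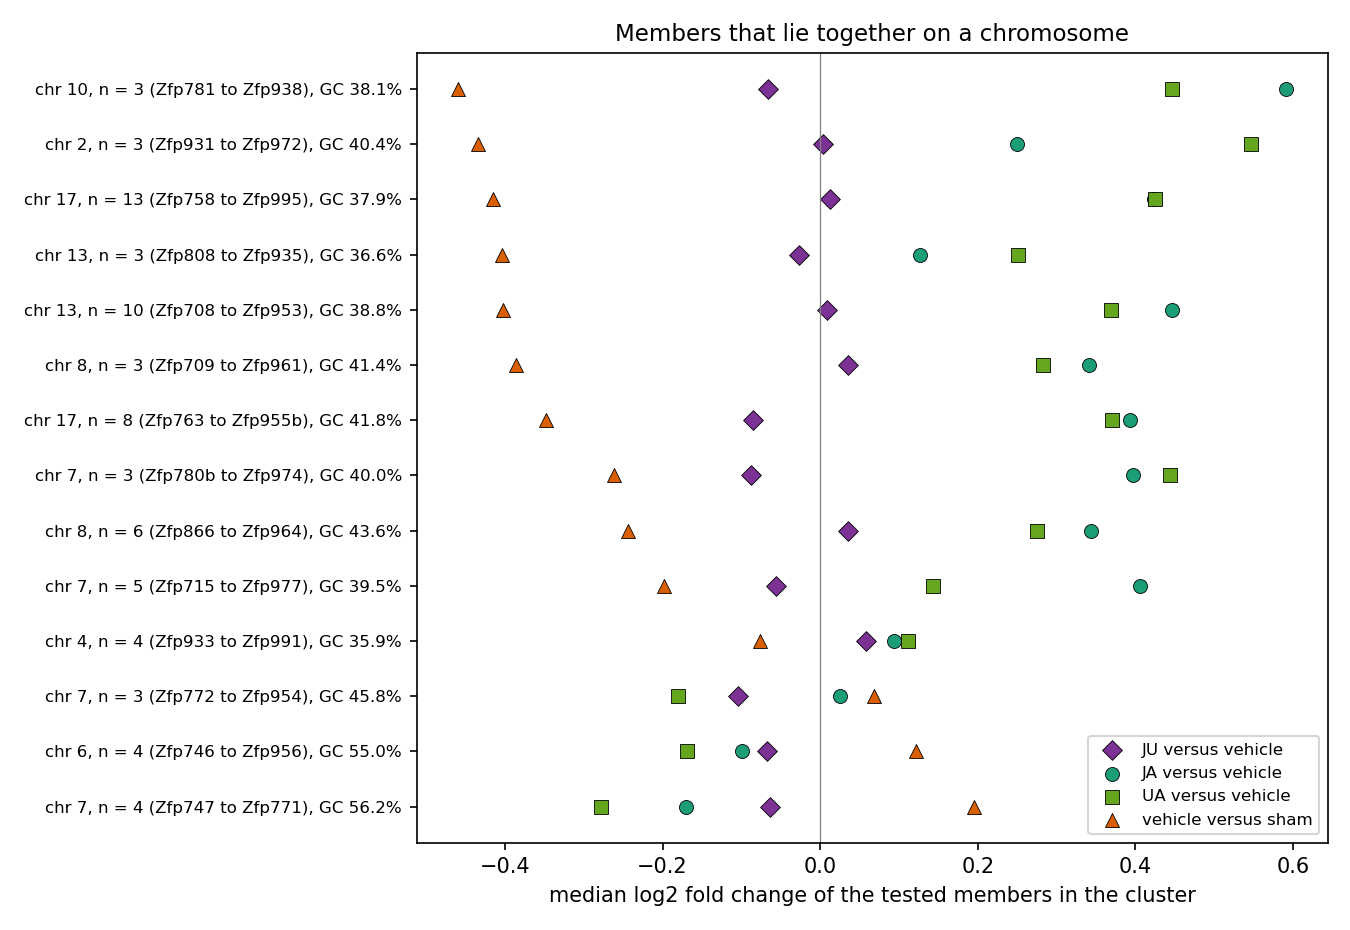
Median log2 fold change of the tested members (horizontal axis) in 14 clusters with at least 3 tested members, 1 row per cluster, named by chromosome, number tested, lowest and highest symbol and median transcript GC content, for JU, JA and UA against vehicle and vehicle against sham. Clusters at 44% GC or less lie below 0 between vehicle and sham and above 0 for JA and UA, and the clusters of chromosomes 6 and 7 at 55.04% and 56.2% GC lie on the opposite sides.

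The tested members with the widest ranges passed in none of the 6 comparisons with all 15 libraries. Zfp979, a KRAB gene of the chromosome 4 cluster, had the widest range among tested members, 2.996 log2 units. It stood at 9.10, 1.97 and 1.53 CPM in JU libraries, 2.32, 1.70 and 2.15 in JA libraries, 1.05, 2.17 and 1.95 in UA libraries, 2.05, 6.03 and 3.25 in vehicle libraries, and 1.58, 1.25 and 1.88 in sham libraries. JU replicate 1 and vehicle replicate 2, the libraries with the highest microglia sums, were also the highest for Zfp979. Its log2 fold change between vehicle and sham was 1.26 ± 0.61 (SE) (adjusted p 0.189), and for JU against vehicle it was 0.15 with all JU libraries and -1.11 without JU replicate 1. Zfp979 shares 26.5% of its transcript with other genes, the closest being Zfp978.

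Zfp804b, a gene with a single finger and a relative of Zfp804a, stood at 0.566, 0.601 and 1.33 CPM in JU libraries, 2.06, 2.06 and 2.15 in JA libraries, and 1.66, 2.86 and 2.20 in UA libraries, against 1.13 to 1.43 CPM in vehicle and 1.30 to 1.56 CPM in sham. The lowest JA value lay above the highest JU value, but the log2 fold change of -1.32 ± 0.33 (SE) did not pass (adjusted p 0.121). Zfp990, Zfp947 and Zfp965 had ranges of 2.56, 2.47 and 2.28 log2 units. Zfp990 and Zfp947 stayed under 2 CPM in every library, where a few counts set the fold. All of the transcript of Zfp965 is shared with other genes, the closest being the predicted gene Gm14327.

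A few members have a known role, and these were chosen for that role and not by the naming rule. Zfp809, which in mouse cells silences retroviral proviruses through Trim28, stood at 10.3, 8.41 and 9.27 CPM in JU libraries, 9.66, 8.27 and 9.78 in JA libraries, 11.5, 10.9 and 9.84 in UA libraries, 7.73, 9.61 and 7.98 in vehicle libraries, and 8.68, 11.3 and 10.5 in sham libraries. Its UA libraries all lay above its JA and its vehicle libraries, but it passed in none of the 6 comparisons. Zfp746, the repressor known as PARIS that acts on the mitochondrial regulator Ppargc1a, had log2 fold changes of 0.18 between vehicle and sham, -0.11 for JA and -0.24 for UA against vehicle, with adjusted p-values of 0.184, 0.478 and 0.139. Zfp804a, whose human counterpart is known from schizophrenia genetics, stood at 22.9, 14.03 and 21.4 CPM in vehicle libraries and 32.99, 36.6 and 31.6 in sham libraries. The groups did not overlap, but the log2 fold change of -0.79 ± 0.30 (SE) did not pass (adjusted p 0.116). Zfp711, an X-linked gene whose human counterpart is linked to intellectual disability, was -0.65 between vehicle and sham (adjusted p 0.093), 0.67 for JA and 0.66 for UA against vehicle (adjusted p 0.151 and 0.122).

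Genes that act with KRAB proteins in silencing were measured as a list of 32. Between vehicle and sham 4 of them fell and 0 rose, where 4.24% of all genes fell and 0.787% rose. The median of the list was 0.12, against 0.00 over all tested genes, so its median and its calls differ in sign. The 4 were Cbx5, which encodes the heterochromatin protein HP1 alpha, the deacetylase gene Hdac2, Mphosph8 of the HUSH silencing complex and the chromatin remodeller gene Atrx. Cbx5 stood at 162, 211 and 190.1 CPM in JU libraries, 252, 241 and 255 in JA libraries, 253, 258 and 258 in UA libraries, 185, 175 and 182 in vehicle libraries, and 249.9, 254 and 250.1 in sham libraries. The JU and vehicle libraries lay below all the others, and the log2 fold change was -0.48 ± 0.09 (SE) between vehicle and sham (adjusted p 0.0145), 0.47 ± 0.09 (SE) for JA and 0.51 ± 0.09 (SE) for UA against vehicle (adjusted p 0.0304 and 0.0166). Hdac2 and Atrx were -0.56 and -0.38 between vehicle and sham (adjusted p 0.0117 and 0.048), and Mphosph8 was -0.49 (adjusted p 0.0469).

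Against vehicle, 2 of the 32 rose in JA, Cbx5 and Atrx, and 3 rose in UA, Cbx5, Hdac2 and Atrx, with none lower, where 1.56% of all genes passed for JA and 3.47% for UA. In JU 0 passed against vehicle or JA, and Cbx5 and Hdac2 fell against UA, where 1.08% of all genes passed (log2 fold changes -0.45 and -0.47, adjusted p 0.0449 and 0.0485). In JU against UA 1 of the 32 passed without JU replicate 1, where 0.623% of all genes did. Trim28 and Setdb1, the core of the KRAB co-repressor complex, passed in none of the 6 comparisons. Trim28 stood at 161, 142 and 140.0 CPM in JU libraries, 139, 126 and 133 in JA libraries, 129, 121 and 134 in UA libraries, 156, 152 and 148 in vehicle libraries, and 134, 136 and 137 in sham libraries. Its vehicle libraries were all above its sham libraries, with a log2 fold change of 0.16 ± 0.07 (SE) and an adjusted p of 0.159. The median transcript GC content of the 32 genes was 49.6%. After the GC correction 0 of them passed in any comparison, where 0% of all genes did. With the correction and without JU replicate 1, 9 of the 32 passed between vehicle and sham, where 24.5% of all genes did. In that fit 5 passed for UA against vehicle, where 11.3% of all genes did, and 0 for JA, where 0.00662% did. Without JU replicate 1 and with no correction, 17 of the 32 passed between vehicle and sham, 8 higher and 9 lower, where 33.9% of all genes passed. For JA against vehicle 10 passed, where 19% of all genes did, and for UA against vehicle 15, where 28.2% did.

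The other 249 tested genes named Zfp with a number had a median transcript GC content of 47.0%. Their median log2 fold change was -0.08 between vehicle and sham, 0.09 for JA and 0.08 for UA against vehicle, with 21, 10 and 14 genes passing, where 5.02%, 1.56% and 3.47% of all genes did. Without JU replicate 1, 73, 42 and 60 passed, where 33.9%, 19% and 28.2% of all genes did. Their medians thus lay between those of the members and of all tested genes in these 3 comparisons.

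Promoters were read for the 115 members with an entry in the RefSeq table for GRCm38.p6, from 250 bases before to 50 bases after the start. The median number of CG dinucleotides was 10 in members and 17 over the 14786 promoters of genes in the table, and 51.3% of members against 66.8% of all held at least 10. The median was 9 in members with the KRAB pattern and 17.5 in the other 34. The latter include Zfp939 and Zfp996, which have no coding sequence in GENCODE to search. The promoters of the member with the smallest adjusted p and of the only member that rose between vehicle and sham are shown, with CG dinucleotides in capitals.
Zfp871: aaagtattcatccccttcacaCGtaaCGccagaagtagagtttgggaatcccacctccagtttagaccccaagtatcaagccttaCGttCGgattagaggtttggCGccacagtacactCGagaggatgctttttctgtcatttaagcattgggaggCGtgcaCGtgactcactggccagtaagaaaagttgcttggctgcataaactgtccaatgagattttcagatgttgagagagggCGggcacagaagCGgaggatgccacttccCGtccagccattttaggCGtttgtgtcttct
Zfp710: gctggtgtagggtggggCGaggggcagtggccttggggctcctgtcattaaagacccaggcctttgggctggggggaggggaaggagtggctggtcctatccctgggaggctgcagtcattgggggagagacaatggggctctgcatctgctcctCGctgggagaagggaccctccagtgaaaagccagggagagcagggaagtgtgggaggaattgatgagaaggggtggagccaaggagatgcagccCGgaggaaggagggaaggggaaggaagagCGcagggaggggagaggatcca
They lie at chr17:32788238-32788537 (minus strand) with 12 CG dinucleotides, and at chr7:80024564-80024863 (plus strand) with 4. Zfp871, with the more CG dinucleotides, has the lower GC content, 49% against 62.7%.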

How the data were processed

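Per the labels' protocols, total RNA was taken with a mirVana kit and a TruSeq Stranded mRNA kit gave the libraries. The deposited table holds whole-number read counts per gene and library and FPKM values, both named per the file headers and made by the authors. Trimmomatic, HISAT2, Cufflinks and DESeq, and the builds GRCm38 and mm10, are named in the submitters' processing notes with no role. Which tool counted, and whether by strand, is not given in the sources used here. Such counts cannot place reads from near-identical genes. 1 count column whose name matched no sample was not used.

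Groups came from the sample labels. Counts were tested in R 4.3.3 with edgeR 4.0.16 (quasi-likelihood, robust, TMM, filterByExpr, 15125 genes), all 15 libraries in 1 fit with a term per group. Adjusted p-values are Benjamini-Hochberg values over all tested genes in each of the 6 comparisons, with a threshold of 0.05, and "called" or "passed" means below it. An SE is the size of the log2 fold change over the root of the F statistic. The biological coefficient of variation was 27.1%, and TMM factors ran from 0.975 to 1.03. The floor of 3 counts is 0.143 to 0.166 CPM, for counting error only. Alternatives used DESeq2 1.42.0, voom in limma 3.58.1, other scaling, filters and libraries, and a loess of each library on transcript GC content (span 0.5). The procedure was also run on simulated data with less spread between replicates than these data and no outlying library. That run does not show how the procedure performs on data like these. Same-numbered JU and JA libraries deviated together (correlations of 0.387 to 0.701 in 3 of 3 pairs), which is read from the data and not from the labels, and in no other pair of groups were more than 1 of 3 over 0.1. Shared stretches came from blastn 2.17.0. KRAB boxes and fingers were found as patterns in translated GENCODE M21 coding sequences, since protein sequences planned as the source were not used here. Coordinates are GRCm38.

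The members and the lists of genes were chosen with earlier results of these data known. Genes named are, per comparison, called members of at least 1 CPM (up to 12 per direction), or the 6 smallest p where fewer than 6 passed, plus the 8 highest in FPKM, the 5 widest in range and up to 4 called chromatin genes. Zfp809, Zfp746, Zfp804a, Zfp711, Trim28 and Setdb1 were named for their roles, outside this rule.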

Additional observations from a re-analysis of the deposited data

How the results depend on the processing

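Counts of called genes depended on the processing. In the order vehicle against sham, JA, UA and JU against vehicle, JU against JA and JU against UA, the counts with all libraries in edgeR were 9, 5, 6, 0, 0 and 2 for the members, 4, 2, 3, 0, 0 and 2 for the 32 chromatin genes and 21, 10, 14, 0, 0 and 10 for the other Zfp genes, where 5.02%, 1.56%, 3.47%, 0%, 0% and 1.08% of all genes passed. DESeq2 called 28, 21, 25, 0, 18 and 25 members, 8, 5, 8, 0, 3 and 5 chromatin genes and 49, 26, 38, 0, 28 and 40 other Zfp genes, where 16.9%, 8.3%, 11.7%, 0.0133%, 4.48% and 11.7% of all genes passed. Limma voom called 9, 4, 6, 0, 0 and 1 members, 2, 1, 3, 0, 0 and 1 chromatin genes and 18, 9, 15, 0, 0 and 7 other Zfp genes, where 4.34%, 1.28%, 3.28%, 0%, 0% and 0.562% of all genes passed. The scaling of DESeq2 in edgeR gave 9, 4, 7, 0, 0 and 0 members, 2, 1, 3, 0, 0 and 0 chromatin genes and 19, 7, 13, 0, 0 and 0 other Zfp genes, where 4.76%, 1.18%, 3.4%, 0%, 0% and 0% of all genes passed. Without a filter on low counts there were 9, 3, 4, 0, 0 and 0 members, 2, 0, 3, 0, 0 and 0 chromatin genes and 17, 2, 10, 0, 0 and 0 other Zfp genes, where 3.31%, 0.517%, 2.11%, 0%, 0% and 0% of all genes passed. Fits of only the groups compared gave 27, 0, 18, 0, 0 and 0 members, 12, 0, 7, 0, 0 and 0 chromatin genes and 44, 0, 27, 0, 0 and 0 other Zfp genes, where 25.5%, 0%, 14.6%, 0%, 0% and 0% of all genes passed. A fit of the other 14 libraries, with JU replicate 1 left out, gave, for the first 3 comparisons, 40, 27 and 36 members, 17, 10 and 15 chromatin genes and 73, 42 and 60 other Zfp genes, where 33.9%, 19% and 28.2% of all genes passed. The GC correction gave 0 members, 0 chromatin genes and 0 other Zfp genes in each of the 6 comparisons, where 0% of all genes passed. The GC correction without JU replicate 1 gave 4, 0, 4, 0, 0 and 0 members, 9, 0, 5, 0, 0 and 0 chromatin genes and 19, 0, 7, 0, 0 and 0 other Zfp genes, where 24.5%, 0.00662%, 11.3%, 0.00662%, 0% and 0% of all genes passed. Leaving out each library of a comparison in turn gave 0 to 4, 0, 0 to 2, 0, 0 and 0 to 31 members, 0 to 3, 0, 0 to 1, 0, 0 and 0 to 8 chromatin genes and 0 to 8, 0, 0 to 5, 0, 0 and 0 to 47 other Zfp genes, where 0% to 2.38%, 0% to 0.15%, 0% to 1.43%, 0% to 0.00656%, 0% and 0% to 20% of all genes passed.

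Replicate numbers are shared between groups, so a replicate block was fitted. The replicate block gave 4, 0, 1, 0, 0 and 0 members, 2, 0, 1, 0, 0 and 0 chromatin genes and 8, 0, 3, 0, 0 and 0 other Zfp genes, where 2.53%, 0%, 1.26%, 0%, 0% and 0% of all genes passed. The replicate block with the GC correction gave 0 members, 0 chromatin genes and 0 other Zfp genes in each comparison, where 0% of all genes passed. Of 30 pairs of same-numbered libraries, 7 had a correlation of deviations over 0.1, within a range of -0.726 to 0.701, but JU with JA was the only pair of groups in which all 3 were. A fit of only the JU and JA libraries with the block, chosen after seeing the data, gave 0 members, 0 chromatin genes and 0 other Zfp genes, where 0% of all genes passed, and a members' median of -0.28 on the log2 scale. The sample titles give only a replicate number and do not say that it pairs samples. Correlations over 3 libraries a group do not settle whether any samples were paired.

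For genes named by their p in a comparison, 786 values in that comparison were computed under alternatives. 0 changed sign, 324 lost the call, 16 gained it and 446 stayed on the same side of the threshold. The genes were picked by their p in these same data, and those that had not passed with all libraries had no call to lose. Genes named for their level or range are not among the 786 values. Of these genes, Zfp979 was 0.15 (log2) for JU against vehicle with all libraries and -1.11 without JU replicate 1. The cause of these shifts was not tested. The members' median fold change moved by more than the spread between replicates (0.0362, log2) under the GC correction in the comparisons other than JU with vehicle. It also moved past that spread without JA replicate 2, JA replicate 3, UA replicate 1, UA replicate 3 or JU replicate 2, in 1 comparison each, and in the fit of only JU and JA with the block. The low levels of most members limit their precision.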
